A study of Mus musculus with 6 samples.

Results

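The myeloid lineage transcription factors described here are 10 genes chosen by symbol from the 27179 genes in the deposited table. Spi1, Cebpa and Gfi1 were taken as early factors, Cebpe, Cebpd, Klf4 and Irf8 as factors of late granulocyte or monocyte stages, and Cebpb, Cebpg and Runx1 complete the set. Their mRNA levels were compared between WT and Asic3-null LICs, the leukemia-initiating cells of a murine acute myeloid leukemia driven by the MLL-AF9 fusion, in which the study asked how loss of the acid-sensing ion channel ASIC3 affects self-renewal and differentiation. In the MLL-AF9 model of the methods, Lin- fetal liver cells of Asic3+/+ or Asic3-/- origin were infected with a retrovirus carrying MLL-AF9 and YFP and transplanted into lethally irradiated C57BL/6 mice. Both groups therefore carried MLL-AF9 and differed by label only in the Asic3 genotype. The labels give C57BL/6 as the strain, bone marrow as the source and 8 weeks as the age, and YFP+Mac-1+c-Kit+ cells were sorted for total RNA. Each genotype had 3 libraries, and whether these came from separate mice is not given in the labels, so that p-values measure the spread between these libraries, which may be technical.

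Myeloid cells take their identity from a small circuit of DNA-binding proteins. PU.1, encoded by Spi1, and C/EBPα open the granulocyte-monocyte program in progenitors, GFI1 and the late factor C/EBPε carry it towards neutrophils, and IRF8 and KLF4 carry it towards monocytes. In MLL-AF9 leukemia the cells keep part of this circuit but do not complete maturation.

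The labels were checked before the factors were compared. Asic3 itself ran against its label, with 9.12, 4.11 and 6.58 RPKM (reads scaled by gene length and by library size) in the Asic3-null-labelled libraries and 1.22, 1.85 and 0.435 RPKM in the WT-labelled ones, so that directions below are given by label. Xist was at 46.5 to 71.9 RPKM in the Asic3-null-labelled libraries and under 1 RPKM in the WT-labelled ones, while Y-linked Ddx3y had no read in the former, so that genotype and the sex of the cells cannot be told apart. Of the sort markers, Itgam, the α chain of Mac-1, fell from 55.1 to 89.5 RPKM in the WT-labelled libraries to 12.3 to 16.9 RPKM in the Asic3-null-labelled ones (limma, adjusted p = 0.000720). Kit, which encodes c-Kit, was detected in every library, at 14.4 to 20.4 RPKM in the Asic3-null-labelled ones and 8.97 to 15.3 RPKM in the WT-labelled ones. The inferred depth ran from 1947168 to 2381861 reads per library. In RNA from a cell population, fewer cells of a type and less RNA per cell cannot be told apart.

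All 10 factors were expressed in every library, and the differences between the groups were modest. The means of 8 factors were lower in the Asic3-null-labelled libraries and those of Cebpe and Runx1 were higher. Cebpb was the member that passed the test, with 0.584 of the WT mean, while Cebpe had 1.32 times the WT mean and Spi1 0.768. Thus 1 of 10 members was called, where limma called 3.35% of all 12037 tested genes, 2.82% lower and 0.523% higher. The groups did not overlap for 5 members, 4 lower and 1 higher, against 22.6% of all tested genes. An unadjusted p under 0.05 was reached by 5 members, against 15.9% of all tested genes. The median log2 fold change of the members was -0.34, beside 0.03 over all tested genes.

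**Figure D1:**
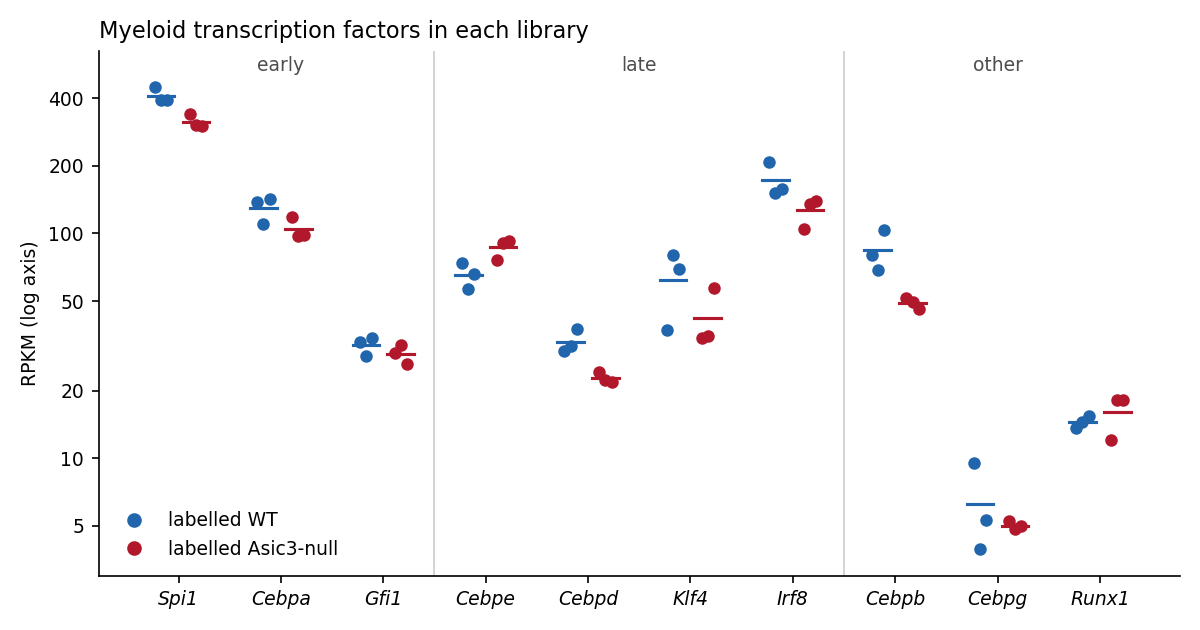
RPKM on a log axis for each of the 10 factors. Each point is 1 library, blue for WT and red for Asic3-null by label, and each line is the mean of 3 libraries. Spi1 lies highest in every library and Cebpg lowest, and the red points lie below the blue ones without overlap for Spi1, Cebpd, Irf8 and Cebpb and above them for Cebpe.

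RPKM is a level per length, so the factors can be set side by side, within the limit of the lengths used. The length inferred from the table was 2829 bases for Irf8, 1333 for Spi1 and 7369 for Runx1, where the exons of GENCODE M21 cover 7055, 2695 and 12025 bases, while it equalled that of the exons for Cebpa and Cebpb, so that the order depends on the annotation. Spi1 was the most abundant member in all 6 libraries, with a mean level of 362 RPKM, higher than 98.5% of tested genes. Irf8 (149 RPKM) and Cebpa (117 RPKM) came next and could not be ordered, since their ranges overlapped and Irf8 exceeded Cebpa in 5 of 6 libraries. Cebpe (76.1 RPKM), Cebpb (66.7 RPKM) and Klf4 (52.2 RPKM) formed a middle group whose members changed places between libraries. Gfi1 (30.5 RPKM) and Cebpd (27.9 RPKM) had overlapping ranges as well. Runx1 (15.3 RPKM) and Cebpg (5.63 RPKM) held the last places in every library. Late granulocyte and monocyte factors were thus read at levels between those of Spi1 and Runx1 in cells sorted for the progenitor marker c-Kit.

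Among the early factors, Spi1 (Entrez 20375, chromosome 2 of GRCm38.p6, 91082374 to 91115759) encodes PU.1, the ETS factor on which monocyte and granulocyte formation depends. Its level was 339, 304 and 301 RPKM in the Asic3-null-labelled libraries and 446, 391 and 392 RPKM in the WT-labelled ones. The groups did not overlap, and the spread within each was narrow. Between 941 and 1251 reads were recovered per library, the counting error of which is about 3.05% at the mean. The log2 fold change of RPKM + 1 (Asic3-null minus WT, as for all values below) was -0.38, with a standard error (SE) of 0.11 and an adjusted p of 0.136 from limma.

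Cebpa (Entrez 12606, chromosome 7, 35119293 to 35121928) encodes C/EBPα, which is required for the step from common myeloid to granulocyte-monocyte progenitors and slows the cell cycle. It had 119, 97.0 and 98.1 RPKM in the Asic3-null-labelled libraries and 138, 110 and 142 RPKM in the WT-labelled ones. WT replicate 2 lay within the range of the other group. The log2 fold change was -0.31 (SE 0.15, limma, adjusted p = 0.344).

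Gfi1 (Entrez 14581, chromosome 5, 107716655 to 107725805) encodes a zinc-finger repressor that favors neutrophils over monocytes. It had 29.4, 32.0 and 26.2 RPKM in the Asic3-null-labelled libraries and 32.7, 28.5 and 34.2 RPKM in the WT-labelled ones. These ranges overlapped for most of their length. Its log2 fold change of -0.12 had a 95% interval from -0.45 to 0.21 (limma, adjusted p = 0.732). Leaving out Asic3-null replicate 2 or 3 gave -0.19 or -0.05, and leaving out WT replicate 2 or 3 gave -0.20 or -0.07.

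The C/EBP proteins are basic leucine zipper factors that pair with each other and bind the same DNA element through a basic region. Because 5 of the 10 members belong to this family, the part of the coding sequence that encodes this shared region is shown for 4 of them, since reads from stretches that genes share cannot be told apart. The sequences come from GENCODE M21 on GRCm38, each lies within a single coding exon, and capitals mark the 35 of 60 bases that are identical in the 4 genes shown. Cebpa lies at chr7:35120271-35120330 on the plus strand, Cebpb at chr2:167689691-167689750 (plus), Cebpe at chr14:54710710-54710769 (minus) and Cebpg at chr7:35050588-35050647 (minus).
Cebpa: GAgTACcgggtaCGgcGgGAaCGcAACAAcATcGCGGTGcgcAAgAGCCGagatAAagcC
Cebpb: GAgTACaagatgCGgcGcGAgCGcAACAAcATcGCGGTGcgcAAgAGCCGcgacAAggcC
Cebpe: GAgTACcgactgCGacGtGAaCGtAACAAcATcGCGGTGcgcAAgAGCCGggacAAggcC
Cebpg: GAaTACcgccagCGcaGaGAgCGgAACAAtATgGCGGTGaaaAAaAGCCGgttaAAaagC

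Within this stretch, Cebpa, Cebpb and Cebpe were identical in each pair at 85% of bases. Cebpg was the most distant of the 4, at 61.7% to 66.7%. Over the whole transcripts, the longest run shared by a pair of these 4 genes was 29 bases, between Cebpa and Cebpb, and the longest runs of the other pairs were 11 to 26 bases. A read longer than that run without mismatches would therefore differ between these 4 genes, but the read length is not given in the sources used here.

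Cebpe (Entrez 110794, chromosome 14, 54710363 to 54712174) encodes C/EBPε, which drives the promyelocyte to myelocyte step and the secondary granule genes of neutrophils. It had 76.4, 90.9 and 92.5 RPKM in the Asic3-null-labelled libraries and 74.1, 56.8 and 65.9 RPKM in the WT-labelled ones. It was the member whose groups did not overlap in the upward direction, with the lowest Asic3-null-labelled library just above the highest WT-labelled one. Its log2 fold change was 0.40 (SE 0.14, 95% interval 0.07 to 0.73, limma, adjusted p = 0.222). The share of tested genes that were higher without overlap was 11.2%.

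Cebpd (Entrez 12609, chromosome 16, 15887286 to 15889545) encodes C/EBPδ, which is induced by cytokines and in granulocytic maturation. Its level was 24.3, 22.3 and 21.9 RPKM in the Asic3-null-labelled libraries and 30.1, 31.6 and 37.4 RPKM in the WT-labelled ones. All Asic3-null-labelled libraries were lower than all WT-labelled ones. For Cebpd the log2 fold change was -0.51 (SE 0.14, limma, adjusted p = 0.113), and 11.4% of tested genes were lower without overlap. The 3′ end of Cebpd overlaps Spidr, which starts at 15889224 and had a mean level of 13.7 RPKM. The library kit does not mark strand, so reads of both genes in the overlap cannot be told apart.

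Of the monocyte factors, Irf8 (Entrez 15900, chromosome 8, 120736358 to 120756694) encodes an interferon regulatory factor that works with PU.1 and directs progenitors to monocytes and dendritic cells at the expense of neutrophils. It had 104, 136 and 140 RPKM in the Asic3-null-labelled libraries and 208, 152 and 157 RPKM in the WT-labelled ones. The groups did not enter each other's range, although Asic3-null replicate 1 and WT replicate 1 stood at opposite ends. This gave a log2 fold change of -0.44 (SE 0.17, limma, adjusted p = 0.244).

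Klf4 (Entrez 16600, chromosome 4, 55527137 to 55532475) encodes a zinc-finger factor that promotes monocyte differentiation downstream of PU.1. It had 34.2, 34.9 and 57.2 RPKM in the Asic3-null-labelled libraries and 37.2, 80.3 and 69.2 RPKM in the WT-labelled ones. The libraries of both groups were scattered and overlapped. The coefficient of variation was 31.1% and 36.0%, and the log2 fold change of -0.52 had a 95% interval from -1.20 to 0.15 (limma, adjusted p = 0.430). It was -0.85 without WT replicate 1 and -0.31 without WT replicate 2.

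Cebpb (Entrez 12608, chromosome 2, 167688915 to 167690432) encodes C/EBPβ, a factor of emergency granulopoiesis and of macrophage gene expression. It had 51.7, 49.7 and 46.2 RPKM in the Asic3-null-labelled libraries and 80.001, 68.6 and 104 RPKM in the WT-labelled ones. The Asic3-null-labelled libraries lay close together, and all of them were under the lowest labelled WT. Cebpb fell from 84.2 ± 18.0 to 49.2 ± 2.80 RPKM (SD, n = 3 each; p = 0.10 by a two-sided exact permutation test, which cannot go lower with 3 against 3). The log2 fold change was -0.74 (SE 0.16, 95% interval -1.12 to -0.37, limma, adjusted p = 0.0461), where 2.82% of all tested genes were called lower. Its adjusted p from limma lay close to the threshold and ran from 0.0260 to 0.165 over the 14 alternatives, with the direction the same in all 14 and the call made in 5. Without WT replicate 3, the library with the highest level, the log2 fold change was -0.58 and the adjusted p from limma was 0.108, and it was 0.105, 0.115, 0.165 and 0.119 without Asic3-null replicate 1, 2 or 3 or WT replicate 1.

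Promoter sequences were at hand in a RefSeq table for GRCm38.p6 for 7 of the 10 members, and Spi1, Cebpd and Cebpe had no entry. Those of Cebpb and Irf8 are shown because the groups did not overlap for these members, each as the 250 bases before an annotated start on the plus strand, chr2:167688665-167688914 and chr8:120736108-120736357. Capitals mark matches on either strand to TATAAA (the TATA box), to CCAAT (the site of NF-Y), to TGACG (the core of the cAMP response element), to TTGCNNAA (a C/EBP site) and to GAGGAA (an ETS core bound by PU.1).
Cebpb promoter: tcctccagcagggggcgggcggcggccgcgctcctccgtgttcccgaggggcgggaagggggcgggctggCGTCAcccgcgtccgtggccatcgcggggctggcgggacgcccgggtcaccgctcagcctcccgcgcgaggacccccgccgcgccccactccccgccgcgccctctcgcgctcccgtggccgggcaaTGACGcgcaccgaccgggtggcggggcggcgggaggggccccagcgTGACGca
Irf8 promoter: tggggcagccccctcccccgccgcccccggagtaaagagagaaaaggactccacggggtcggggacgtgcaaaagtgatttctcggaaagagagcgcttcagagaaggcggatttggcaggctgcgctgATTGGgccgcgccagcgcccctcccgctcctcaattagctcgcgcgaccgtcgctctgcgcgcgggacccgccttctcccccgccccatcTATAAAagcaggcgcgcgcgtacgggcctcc

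The Cebpb window was 81.6% G and C, against a median of 52.4% over the 32851 promoters of the table. It held 3 matches to TGACG, starting 180, 53 and 7 bases before the start. Of all promoters, 0.688% held 3 or more and 17.8% held at least 1. The cut of 3 equals the count in this window, and promoters of like G and C content were not compared. The window also held CACCC (a KLF motif) at 177 bases and, on the opposite strand, at 38 bases, where 52.0% of promoters held it. The Irf8 window held TATAAA 31 bases before the start and CCAAT on the opposite strand at 121 bases, motifs found in 12.4% and 33.8% of promoters. Neither window held a match to TTGCNNAA (9.56% of promoters) or GAGGAA (23.3%). The table held another start of Irf8, whose window is not shown and had no match to these motifs. These matches describe the letters alone.

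Cebpg (Entrez 12611, chromosome 7, 35046422 to 35056566) encodes C/EBPγ, a family member that lacks a strong activation domain and pairs with the others. It had 5.24, 4.82 and 4.98 RPKM in the Asic3-null-labelled libraries and 9.51, 3.93 and 5.30 RPKM in the WT-labelled ones, with 36 to 94 recovered reads. WT replicate 1 stood far above the other libraries, which lay close together. Cebpg had a log2 fold change of -0.20 (SE 0.28, limma, adjusted p = 0.783), which turned to 0.11 without WT replicate 1 (limma, adjusted p = 0.885) and was -0.44 without WT replicate 2.

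Runx1 (Entrez 12394, chromosome 16, 92601466 to 92826074) encodes the DNA-binding part of core binding factor, needed for the emergence of blood stem cells and for PU.1 expression. It had 12.01, 18.1 and 18.1 RPKM in the Asic3-null-labelled libraries and 13.6, 14.5 and 15.5 RPKM in the WT-labelled ones. The WT-labelled libraries lay between the Asic3-null-labelled ones. Runx1 had a log2 fold change of 0.12 (SE 0.19, 95% interval -0.32 to 0.55, limma, adjusted p = 0.807), which was 0.30 without Asic3-null replicate 1, 0.03 without replicate 2 or 3 of that group and 0.07 without WT replicate 1.

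**Figure D2:**
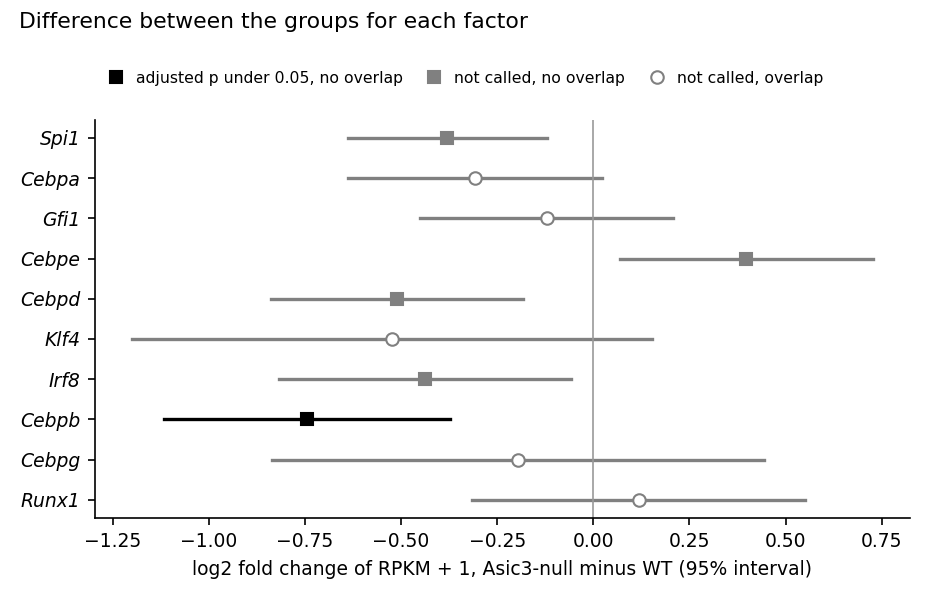
Log2 fold change of RPKM + 1 (Asic3-null minus WT by label) for each factor on the horizontal axis, with its 95% interval from limma over 3 libraries per group. Squares mark factors whose groups did not overlap and circles those that did, and black marks an adjusted p under 0.05. Cebpb at -0.74 is the black point, and Cebpe at 0.40 is the highest.

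The comparison of early with late factors asked whether the stage of the program shifted. The mean log2(RPKM + 1) level of the 3 early factors was 6.64 ± 0.10 in the Asic3-null-labelled libraries and 6.91 ± 0.13 in the WT-labelled ones (SD, n = 3 each). That of the 4 late factors was 5.85 ± 0.16 and 6.12 ± 0.08. Both sets were lower in every Asic3-null-labelled library than in every WT-labelled one, and by nearly the same amount, but the gaps were narrow. For the early set the highest Asic3-null-labelled value was 6.747 and the lowest WT-labelled one 6.765. For the late set these were 6.015 and 6.038. No background share was computed for such scores. Late minus early was -1.05, -0.81 and -0.53 in the Asic3-null-labelled libraries and -0.96, -0.65 and -0.78 in the WT-labelled ones, so that the groups overlapped and their means differed by 0.0013. The late set joined factors that ran in opposite directions, since Cebpe was higher and Cebpd, Irf8 and Klf4 had lower means. Without Cebpe the difference between the groups became -0.22, against a pooled SD between libraries of 0.22 for the full set.

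The summed level of the 5 genes was 264 to 276 RPKM in the Asic3-null-labelled libraries and 271 to 355 RPKM in the WT-labelled ones, with overlap. Cebpe made up 27.6%, 34.3% and 35.1% of this sum in the Asic3-null-labelled libraries and 22.4%, 20.97% and 18.6% in the WT-labelled ones. Cebpb made up 18.7%, 18.8% and 17.5% and 24.1%, 25.3% and 29.3%, in the same order. The shares of Cebpe and Cebpb did not overlap between the groups, in opposite directions, although shares of 1 sum move against each other by construction and were given no test. Cebpe ranked above Cebpb in each Asic3-null-labelled library and below it in each WT-labelled one. The share of Cebpd was also lower without overlap, at 8.29% to 8.78% against 9.08% to 11.7%. Cebpa held the largest share in every library, 36.6% to 43.0% and 40.1% to 41.5%, with overlap.

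**Figure D3:**
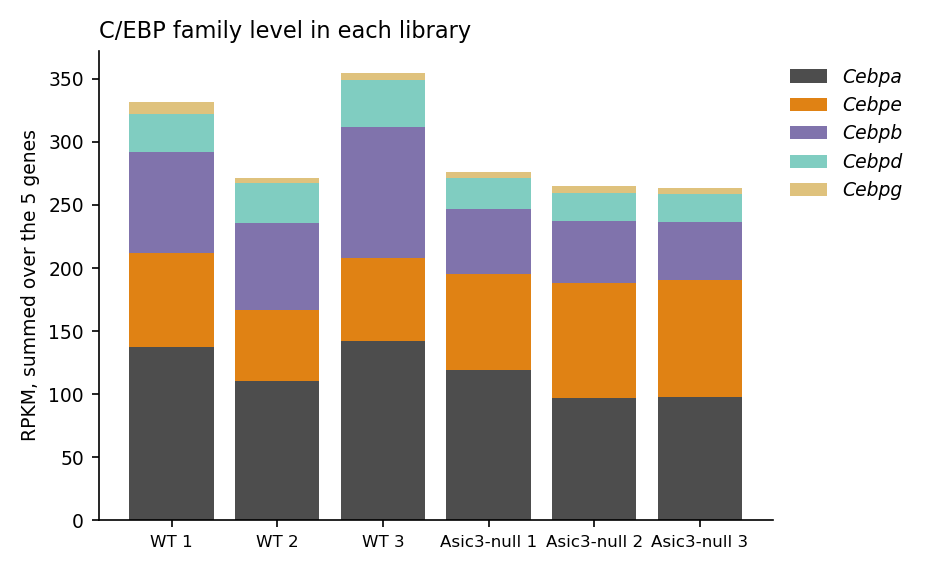
RPKM of the 5 C/EBP genes, stacked for each of the 6 libraries. The orange part, Cebpe, is 18.6% to 22.4% of the bar in the WT-labelled libraries and 27.6% to 35.1% in the Asic3-null-labelled ones, and the purple part, Cebpb, runs the other way.

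Ratios within a library cancel any common scale, and 8 pairs of members were compared as values with no test. Irf8 to Cebpe, which sets a monocyte factor against a granulocyte factor, was 1.36, 1.49 and 1.51 in the Asic3-null-labelled libraries and 2.80, 2.67 and 2.39 in the WT-labelled ones. Since Irf8 was lower and Cebpe higher without overlap, this ratio could not overlap and restates those values. Cebpe to Cebpa, a late to an early C/EBP, was 0.643, 0.937 and 0.944 against 0.539, 0.516 and 0.463. Cebpb to Cebpa, whose switch accompanies emergency granulopoiesis, was 0.435, 0.512 and 0.471 against 0.581, 0.624 and 0.731. These 3 pairs did not overlap, and they share Cebpe or Cebpa and so are not separate evidence. Irf8 to Cebpa, Spi1 to Cebpa, Cebpd to Cebpa, Gfi1 to Irf8 and Klf4 to Irf8 overlapped between the groups. The share of 22.6% given above is for single genes, and none was computed for ratios.

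**Figure D4:**
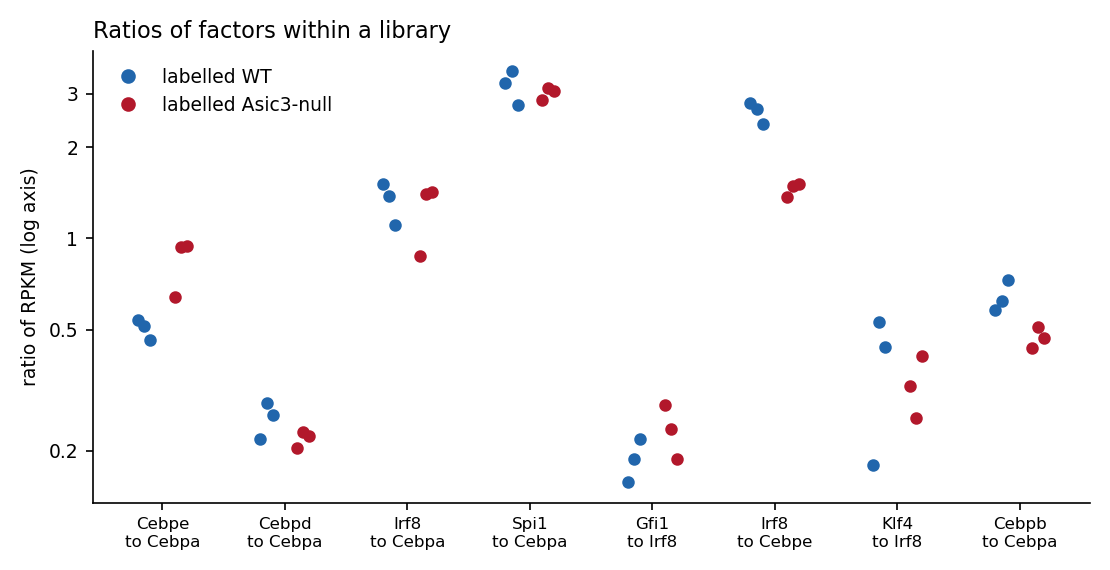
Ratio of RPKM between 2 factors within a library, on a log axis, for 8 pairs. Each point is 1 library, blue for WT and red for Asic3-null by label. Irf8 to Cebpe is 2.39 to 2.80 in the blue points and 1.36 to 1.51 in the red ones, and 5 of the 8 pairs overlap.

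Proteins that work with these factors or degrade them were read next. The list held 22 genes for leucine zipper partners, the RUNX1 partner Cbfb, histone deacetylases, corepressors and the Trib and Cop1 degraders of C/EBPα, and 19 were tested. Limma called 0 of them, also under each of the 14 alternatives, and 2 had an unadjusted p under 0.05. Their median log2 fold change was 0.20. Rcor1, a partner of the demethylase that GFI1 recruits, had a log2 fold change of 0.47 and Fos, a leucine zipper factor, one of 0.37, with adjusted p from limma of 0.314 and 0.336.

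Relatives of the factors outside the 10, the other IRF, KLF, RUNX, PU.1-like and GFI genes, numbered 29, of which 19 were tested. Of these 2 were called, both lower, while the means of 12 were lower and of 7 higher, and the median log2 fold change was -0.27. Klf3, a repressor of the KLF family, had 3.17, 2.72 and 2.94 RPKM in the Asic3-null-labelled libraries and 12.3, 7.99 and 7.12 RPKM in the WT-labelled ones (log2 fold change -1.33, limma, adjusted p = 0.0188). Klf13 had 36.6, 30.7 and 36.0 RPKM and 64.4, 59.1 and 49.8 RPKM (log2 fold change -0.73, limma, adjusted p = 0.0334). With any library but WT replicate 3 left out neither was called, and the adjusted p from limma reached 0.0722 for Klf3 and 0.115 for Klf13. Over all 14 alternatives the calls were made in 8 and 7. Irf5, a factor of inflammatory macrophages, came next with a log2 fold change of -0.90 (limma, adjusted p = 0.0847) and was called lower in 3 of 14 alternatives. Of those with higher means, Klf2, a gene of quiescent lymphoid and myeloid cells chosen here after its values were seen, had 503, 1103 and 1021 RPKM in the Asic3-null-labelled libraries and 310, 491 and 562 RPKM in the WT-labelled ones, with overlap (log2 fold change 0.91, limma, adjusted p = 0.201). It was called higher in 2 of 14 alternatives.

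A list of 34 other hematopoietic transcription factors, 30 of them tested, had a median log2 fold change of -0.01. Limma called 4, of which 3 were lower. Id2, an inhibitor of helix-loop-helix factors, fell from 201, 141 and 125 RPKM in the WT-labelled libraries to 53.6, 31.7 and 31.8 RPKM in the Asic3-null-labelled ones (log2 fold change -1.98, limma, adjusted p = 0.00302), a call made in all 14 alternatives. Nfil3, a leucine zipper repressor, and Rara, the retinoic acid receptor that promotes granulocyte maturation, fell with log2 fold changes of -0.79 and -0.77 (adjusted p = 0.0453 and 0.0456 from limma), and neither was called with any 1 library left out, where the adjusted p ran up to 0.138 and 0.149. Over all 14 alternatives they were called in 4 and 5. Gata2, a stem and progenitor factor, rose with a log2 fold change of 0.88 (limma, adjusted p = 0.0440), a call made in 6 of 14 alternatives, and lost among others without Asic3-null replicate 1 or 3 or WT replicate 1 or 2 (limma, adjusted p up to 0.158).

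Genes on which these factors are known to act were read as lists beside them. Of 8 genes listed as secondary granule genes, textbook targets of C/EBPε, 8 were called lower. Their median log2 fold change was -3.18, and 7 or 8 were called under each alternative. Their summed level was 244 to 338 RPKM in the Asic3-null-labelled libraries and 2208 to 3122 RPKM in the WT-labelled ones. Camp, which encodes the cathelicidin of neutrophils, fell from 445, 545 and 376 RPKM to 5.05, 13.3 and 13.5 RPKM (log2 fold change -5.39, limma, adjusted p = 8.10e-05). Ngp, another granule protein, fell from 671, 778 and 790 RPKM to 30.9, 57.5 and 45.1 RPKM (log2 fold change -4.08, limma, adjusted p = 3.50e-05). Ltf, which encodes lactoferrin, fell from 8.50, 38.0 and 24.3 RPKM to 0.473, 2.30 and 0.466 RPKM (log2 fold change -3.46, limma, adjusted p = 0.00831). Mmp8, Lcn2, Chil3, Mmp9 and Cd177, which encode further granule or surface proteins of neutrophils, fell with log2 fold changes of -3.48, -2.60, -2.91, -2.00 and -1.80. Cebpe itself was at 1.32 times the WT mean in the same libraries and was not called (limma, adjusted p = 0.222).

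Primary granule genes, which are switched on earlier, were listed together with the progenitor marker Ms4a3. The genes of this list were spread around a median log2 fold change of -0.61, and 1 of 5 was called. Elane, neutrophil elastase, fell from 1203, 1621 and 1711 RPKM to 631, 865 and 979 RPKM (log2 fold change -0.88, limma, adjusted p = 0.0435), a call made in 6 of 14 alternatives, and lost among others with any library but WT replicate 1 left out (adjusted p up to 0.132). Ctsg, cathepsin G, had a log2 fold change in the other direction of 0.43 (limma, adjusted p = 0.289), and Ms4a3, a marker of granulocyte-monocyte progenitors, one of -1.02 (limma, adjusted p = 0.116). Ms4a3 was called lower in 1 of 14 alternatives.

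Among 10 monocyte genes, known targets of PU.1, IRF8 or KLF4, 9 were tested and 5 were called, all lower, and the median log2 fold change was -0.99. Their summed level was 1020 to 1239 RPKM in the Asic3-null-labelled libraries and 1573 to 1701 RPKM in the WT-labelled ones, and no gene of the list was at 0 in every library. Mpeg1, a pore-forming protein of macrophages, fell from 139, 154 and 119 RPKM to 34.9, 42.9 and 48.0 RPKM (log2 fold change -1.69, limma, adjusted p = 0.000836). Ctss, Ccr2, Ms4a6c and Cd14 fell with log2 fold changes of -1.36, -1.46, -0.99 and -1.36. Irf8 was at 0.735 and Klf4 at 0.676 of the WT mean, and neither was called (limma, adjusted p = 0.244 and 0.430). The calls of Mpeg1, Ctss, Ccr2 and Ms4a6c were made in all 14 alternatives, and that of Cd14 in 7, lost among others with any library but WT replicate 1 left out (limma, adjusted p up to 0.0872).

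The receptors for colony-stimulating factors and IL-6 and the Mac-1 gene Itgam, classic targets of PU.1 and C/EBP proteins, had a median log2 fold change of -0.96, and 3 of 6 were called, all lower. Csf1r, the receptor for M-CSF and a direct PU.1 target, fell from 77.1, 67.5 and 54.8 RPKM to 22.6, 19.2 and 26.9 RPKM (log2 fold change -1.50, limma, adjusted p = 0.00261). Csf3r, the receptor for G-CSF and a C/EBPα target, fell from 30.0, 23.9 and 17.5 RPKM to 7.79, 9.44 and 10.6 RPKM (log2 fold change -1.25, limma, adjusted p = 0.0175), a call made in 9 of 14 alternatives, and lost among others without Asic3-null replicate 1 or 2 or WT replicate 1 or 2 (adjusted p up to 0.0645). Spi1 and Cebpa were at 0.768 and 0.805 of the WT mean, and neither was called (limma, adjusted p = 0.136 and 0.344). The lower level of mature granulocyte and monocyte genes, and of Itgam in the sort, moved with the group in these libraries, and its part in the values of the 10 factors was not tested.

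**Figure D5:**
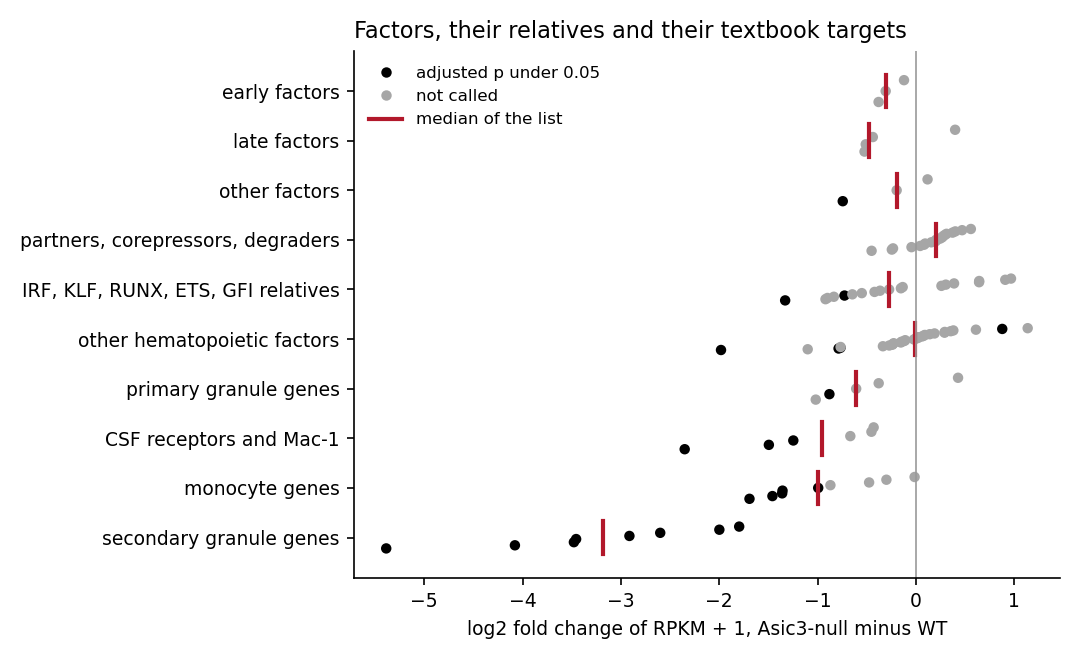
Log2 fold change of RPKM + 1 (Asic3-null minus WT by label) of each tested gene on the horizontal axis, for the factors in 3 groups and for 7 lists of related genes. Black points had an adjusted p under 0.05 from limma and red lines are medians, which run from 0.20 for the partners to -3.18 for the secondary granule genes.

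The tested genes whose log2(RPKM + 1) was most like that of each factor over the 6 libraries were listed by Pearson's r, as a description. The libraries share the group difference and their depth. Between 19 and 141 genes passed an r of 0.95 with a given member. Over 6 libraries and 12037 tested genes, high values can also arise by chance. How many would do so was not tested, so no link is read from the names. Spi1 was closest to Gsr (0.996) and Stag3 (0.994), Cebpa to Rnf114 (0.993) and Cop1 (0.987), and Gfi1 to Ndufb10 (0.995) and Clptm1l (0.984). Cebpe was closest to Dhrs7b (0.996) and Dtwd1 (0.986), Cebpd to Rhog (0.987) and Cndp2 (0.985), Irf8 to Slc35d2 (0.996) and Cbfa2t3 (0.992), and Klf4 to Gm8317 (0.994) and Inip (0.991). Cebpb was closest to Atp6v1g1 (0.996) and Arpc2 (0.990), Cebpg to Snord104 (0.985) and Whamm (0.984), and Runx1 to Heg1 (0.989) and Gm9169 (0.988). No gene was named for more than a single factor.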

How the data were processed

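Total RNA of sorted YFP+Mac-1+c-Kit+ LICs was sequenced as 3 WT-labelled and 3 Asic3-null-labelled libraries, grouped by their sample labels. Per the submitters' processing notes, the authors used CASAVA 1.8.2, TopHat2 2.0.12 and GRCm38. The authors deposited 1 table of RPKM by gene. The counting tool and annotation are not given in the sources used here. With gene lengths in whole bases, the RPKM of each of 16825 detected genes came out as whole reads (tolerance 0.0001), from which depth and reads were inferred. On genes lay 99.6% to 99.7% of reads, and tested genes had a median of 81 reads. Without molecular identifiers this precision covers counting error only.

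The 12037 genes whose RPKM averaged 1 or more were tested in limma 3.58.1 (R 4.3.3) on log2(RPKM + 1), with empirical Bayes moderation, an intensity trend and Benjamini-Hochberg adjustment (threshold 0.05). A fold change on this scale understates the change of low genes. Since the values are RPKM, the reads recovered from them served only an alternative. Single values were also compared by exact permutation, and "not overlapping" means that every library of 1 group lay above every library of the other. Shares, ratios and scores over members got no test. The alternatives were a pseudocount of 0.1, no filter, a minimum mean of 5 RPKM, median-ratio scaling, quantile normalization, no trend, the replicate number as a block, limma-voom on the recovered reads, and each library left out in turn, 14 in all. The steps were tested on simulated data. There 2.99% of genes changed 1.5-fold were called, 62.7% of those changed 2-fold and 95.5% of those changed 4-fold, with 11 false calls. A change of 1.5-fold would thus seldom be called. Other steps used Python 3.11.15, numpy 2.4.6 and pandas 2.3.3. RefSeq annotation of GRCm38.p6 supplied gene positions and 25275 of 27179 symbols.

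The members and gene lists were chosen with earlier results of these data known. Every member is named, as are the called genes of each list and those with the 3 lowest p, and the 2 genes most like each member. Some items that this rule or the family comparison would name are not reported here. Lists of erythroid, T, B, NK and megakaryocyte markers served as checks.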

Additional observations from a re-analysis of the deposited data

How the results depend on the processing

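The call on Cebpb, the direction of Cebpg, the number of genes called and late minus early all depended on the settings, as did several calls of genes in the lists. Besides the losses with a library left out, keeping low values in ended the calls of Klf3, Gata2, Nfil3, Rara, Elane, Cd14 and Gp1bb. Leaving off the intensity trend ended those of Klf13, Gata2, Nfil3, Rara, Elane and Cd14, the replicate block those of Klf13, Gata2, Nfil3, Rara, Csf3r and Gp1bb, quantile normalization those of Gata2 and Elane, and a pseudocount of 0.1 that of Nfil3. Calls were gained by Irf5, Klf2 and Ms4a3 with the replicate block, by Irf5, Klf10 and Csf2ra with limma-voom, by Irf5, Klf2 and Egr1 without Asic3-null replicate 1, by Mpo without WT replicate 1 and by Hba-a1 without WT replicate 3. Of these Klf2 and Egr1 were higher and the others lower. Of the members, 1 was called with a minimum mean of 5 RPKM, median-ratio scaling, quantile normalization and limma-voom, and 0 with a pseudocount of 0.1, low values kept in, the intensity trend left off and the replicate number as a block, where the adjusted p of Cebpb from limma was 0.0507, 0.0750, 0.102 and 0.105. With each library left out in turn the count of called members was 0 to 1 (1 without WT replicate 2). The cause was not tested.

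Of 140 values of the members under the alternatives, 130 kept their direction and their side of the threshold, 9 lost the call with the same direction (all Cebpb) and 1 reversed, Cebpg, which ran from -0.44 without WT replicate 2 to 0.11 without WT replicate 1. The number of all genes called, 403 in the report, was 246 with the replicate block, 203 to 293 with a library left out and 288 to 543 otherwise. It was under the full count by more than 1.5 times without Asic3-null replicate 1, 2 or 3 (236, 233 and 205) and without WT replicate 1 or 2 (203 and 239). The difference of late minus early factors was -0.22 without Cebpe, -0.13 to 0.13 with a library left out and 0.0580 to 0.0861 without Cebpd, Klf4 or Irf8.

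Both groups carry replicate numbers 1 to 3, but deviations of same-numbered libraries from their group means correlated at 0.06, -0.06 and -0.12, not every library correlated best with its own number, and nothing in the labels ties the numbers, so the libraries share only a number. With 3 libraries per group, 95% intervals of the members spanned 0.52 to 1.35 on the log2 scale. In the simulated data 2.99% of genes changed 1.5-fold were called. Both limit what can be said of the 9 members that were not called.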

Other observations

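Markers of other blood cells were read as a check on the sorted cells. T cell and NK cell markers summed to at most 1.72 and 0.601 RPKM in any library, with 3 of 6 and 3 of 5 genes at 0 in every library. Erythroid markers, of which 5 of 6 had a row, summed to 0.547 to 2.20 RPKM in the Asic3-null-labelled libraries and 2.10 to 7.19 RPKM in the WT-labelled ones. B cell markers summed to 37.3 to 47.6 and 42.0 to 49.996 RPKM, nearly all of it Cd79b, while Ms4a1 was at 0 in every library. Megakaryocyte markers summed to 11.6 to 23.3 and 11.6 to 15.8 RPKM. Pf4 and Ppbp were at 0 in every library, and Gp1bb, a platelet glycoprotein chain, fell in the Asic3-null-labelled libraries (log2 fold change -1.76, limma, adjusted p = 0.0249), a call made in 7 of the 13 alternatives that tested it and lost among others without Asic3-null replicate 1 or 2 or WT replicate 1 or 3 (adjusted p up to 0.0968). Itga2b, the integrin chain of megakaryocytes and some progenitors, ran the other way, with 10.4, 21.99 and 16.6 RPKM in the Asic3-null-labelled libraries and 6.78, 10.8 and 5.65 RPKM in the WT-labelled ones, with overlap and without a call (log2 fold change 0.98, limma, adjusted p = 0.145).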
